A study of Mus musculus with 6 samples.

Results

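SR proteins and heterogeneous nuclear ribonucleoproteins (hnRNPs) are the most abundant families of splicing regulators, and their transcript levels were compared here between wild-type cortex and cortex lacking the STAR-family RNA-binding proteins Sam68 and SLM2. The genes were chosen by symbol, with no measured value in the rule but with earlier results of these data known. They comprise SR proteins, TRA2 proteins, the kinases that phosphorylate SR proteins, hnRNP and PCBP genes, and the FET proteins, TDP-43 and Matrin 3. All 41 listed genes were found among the 59484 features of the deposited table, of which 23505 carry a gene symbol. PolyA+ RNA was sequenced from the cortex of C57BL/6 mouse embryos at embryonic day (E) 18.5, with 3 libraries from wild-type embryos and 3 from embryos in which both *Sam68* and *Slm2* are constitutively knocked out (dKO). The knockout therefore reaches every cell of the embryo and all of its development, and the libraries hold the RNA of all cell types of the cortex. In such bulk samples, fewer cells of a type and less RNA per cell cannot be told apart.

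SR proteins bind exonic enhancers through their RNA recognition motifs and recruit the splicing machinery through a domain rich in arginine and serine. SRPK kinases phosphorylate this domain in the cytoplasm, which allows nuclear import, and CLK kinases phosphorylate it in the nucleus. The hnRNPs coat nascent transcripts and often oppose SR proteins at the same exons, and both families are well expressed in dividing progenitors and young neurons. Many of these genes control their own level through exons or retained introns that bring a premature stop codon, so that their transcript level responds to splicing. Sam68 and SLM2 belong to the same broad class of splicing regulators. The comparison of the genotypes shows whether the transcript level of the other regulators differs when both are lost.

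The deposited values are read counts divided by a size factor of the library (normalized counts). Reads on the listed features ranged from 31837922 to 40896541 per library, and each gene of the set had at least 203 reads in every library. The genotypes were compared with limma on log2(normalized count + 1) for the 18970 features whose mean reached 10, and the Benjamini-Hochberg method was applied to the *P*-values of all of them. Nothing in the labels says whether the libraries of a genotype came from different litters, so the *P*-values measure the spread between these libraries. The paper describes obtaining dKO mice from *Sam68+/-:Slm2-/-* parents, a cross that cannot give wild-type embryos. Embryos of this cross differ from wild-type ones in litter and maternal genotype too. These differences cannot be told apart from that of the knockout. The genotype labels were checked on the targeted genes first. *Khdrbs1*, which encodes Sam68, had 8231, 8436 and 7974 normalized counts in the wild-type libraries and 114, 197 and 146 in the dKO libraries, a log2 fold change of -5.78 (SE 0.16). *Khdrbs3*, which encodes SLM2, had 13543, 15215 and 12764 in wild-type and 7060, 6350 and 6547 in dKO libraries, a log2 fold change of -1.05 (SE 0.09, adjusted p = 0.000855 from limma). Both transcripts were lower in each dKO library than in each wild-type library.

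Replicate 1 of each genotype stood apart from the other libraries. Across the 14194 tested features with an annotated exon length, the deviation of a feature from its mean over the libraries correlated with exon length with a Spearman's rho of 0.28 in wild-type replicate 1 and 0.33 in dKO replicate 1. The other 4 libraries gave values between -0.23 and -0.13. This is a correlation across features, which are not independent replicates, With a correction for exon length, the set had 8 genes at an unadjusted *P*-value under 0.05, the number found without it, 33 genes with higher dKO values and a median log2 fold change of 0.08 (limma). The main counts are also given without both of these libraries.

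The genes of the set are among the well-expressed ones of the cortex, and their share of a library's reads lay from 1.15% to 1.27%. Levels were set beside each other as wild-type mean normalized counts per kilobase of annotated exon (GENCODE release M21). They ranged from 53.7 for *Hnrnph2* to 13750.5 for *Hnrnpa2b1*, with a median of 2304. hnRNP A/B genes held the top of this order. *Hnrnpa2b1*, *Hnrnpa0* (11980 per kilobase), *Hnrnpa1* (11814) and *Hnrnpab* (9837) were followed by *Hnrnph1* (9600) and *Pcbp1* (7887). The highest of the SR proteins were *Srsf2* (5226) and *Srsf3* (4997). The kinases lay in the lower part, with *Clk2* (1230), *Clk1* (960), *Clk4* (376), *Srpk1* (276) and *Srpk2* (225). The feature of *Clk2* also carries the symbol *Scamp3* and that of *Hnrnpa1* the symbol *Gm10052*. Their counts were divided by the exon length of *Clk2* and *Hnrnpa1* alone, so the places of these genes in the order are uncertain. Of the 40 pairs of neighbours in this order, 25 overlapped between their wild-type libraries, *Hnrnpa0* and *Hnrnpa1* among them, and so cannot be ranked beyond their spread.

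**Figure D1:**
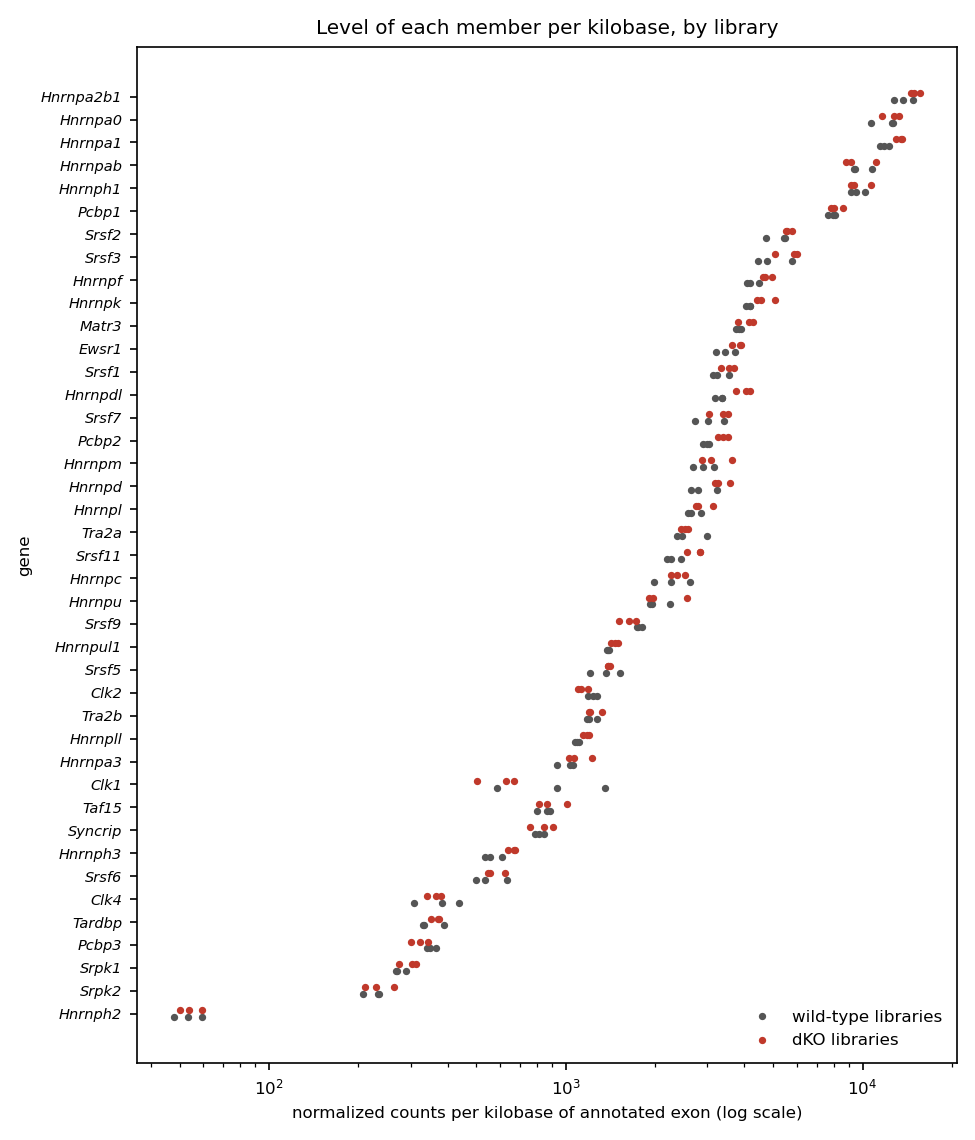
Normalized counts per kilobase of annotated exon (horizontal axis, log scale) of each gene of the set in each library, ordered by the wild-type mean. Grey points are the 3 wild-type libraries and red points the 3 dKO libraries. *Hnrnpa2b1* is at the top with a wild-type mean of 13750.5 and *Hnrnph2* at the bottom with 53.7, and for most genes the grey and red points overlap.

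No gene of the set differed between the genotypes at an adjusted *P*-value under 0.05. Over all features 19 of 18970 did (0.10%), and the smallest adjusted *P*-value of the set was 0.30, for *Hnrnpdl* (limma). By edgeR and DESeq2 on the recovered reads the count was also 0, with 9 and 8 genes at an unadjusted *P*-value under 0.05 and an adjusted *P*-value of 0.088 for *Hnrnpdl* by DESeq2. At an unadjusted *P*-value under 0.05, 8 of the 41 genes were called by limma, beside 11.5% of all features, and all 8 had higher values in dKO cortex: *Hnrnpdl*, *Srsf11*, *Pcbp2*, *Hnrnph3*, *Hnrnpa1*, *Hnrnpd*, *Hnrnpf* and *Hnrnpk*. These 8 are 19.5% of the set, whereas 4.92% of all features were called in this direction. The count of genes called higher fell to 3 with quantile normalization and to 2 with limma without its trend and robust options. It was 2 without dKO replicate 3, 3 without wild-type replicate 3 and 5 without dKO replicate 1. Without wild-type replicate 1, 4 genes were called, 3 with higher and 1 with lower dKO values. In the lower direction, 0 genes of the set were called, beside 6.58% of all features. In some alternatives 1 gene, *Clk1*, was called lower. These were edgeR, the fits with the replicate number as a block, and those without wild-type replicate 1 or replicate 1 of both genotypes. Of the 8 genes, 7 are hnRNP or PCBP genes and the other is *Srsf11*.

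The differences were small in every gene but *Clk1*. The log2 fold change was under 0.3 in size in 40 of the 41 genes, and the 95% confidence interval of these 40 lay within 1.5-fold in both directions, with bounds from -0.34 to 0.44. The values were higher in dKO cortex for 34 genes (82.9%) and lower for 7, with a median log2 fold change of 0.08 beside 0.00 over all features. This direction depends on the expression level of the features compared. Among the 1411 features whose mean reached 5000 normalized counts, the median was also 0.08 and 76.4% had higher values in dKO cortex. With quantile normalization the median of the set was 0.02, and 24 of the 41 genes (58.5%) had higher dKO values. With 1 library left out, the number with higher values lay from 28, without dKO replicate 1, to 36.

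**Figure D2:**
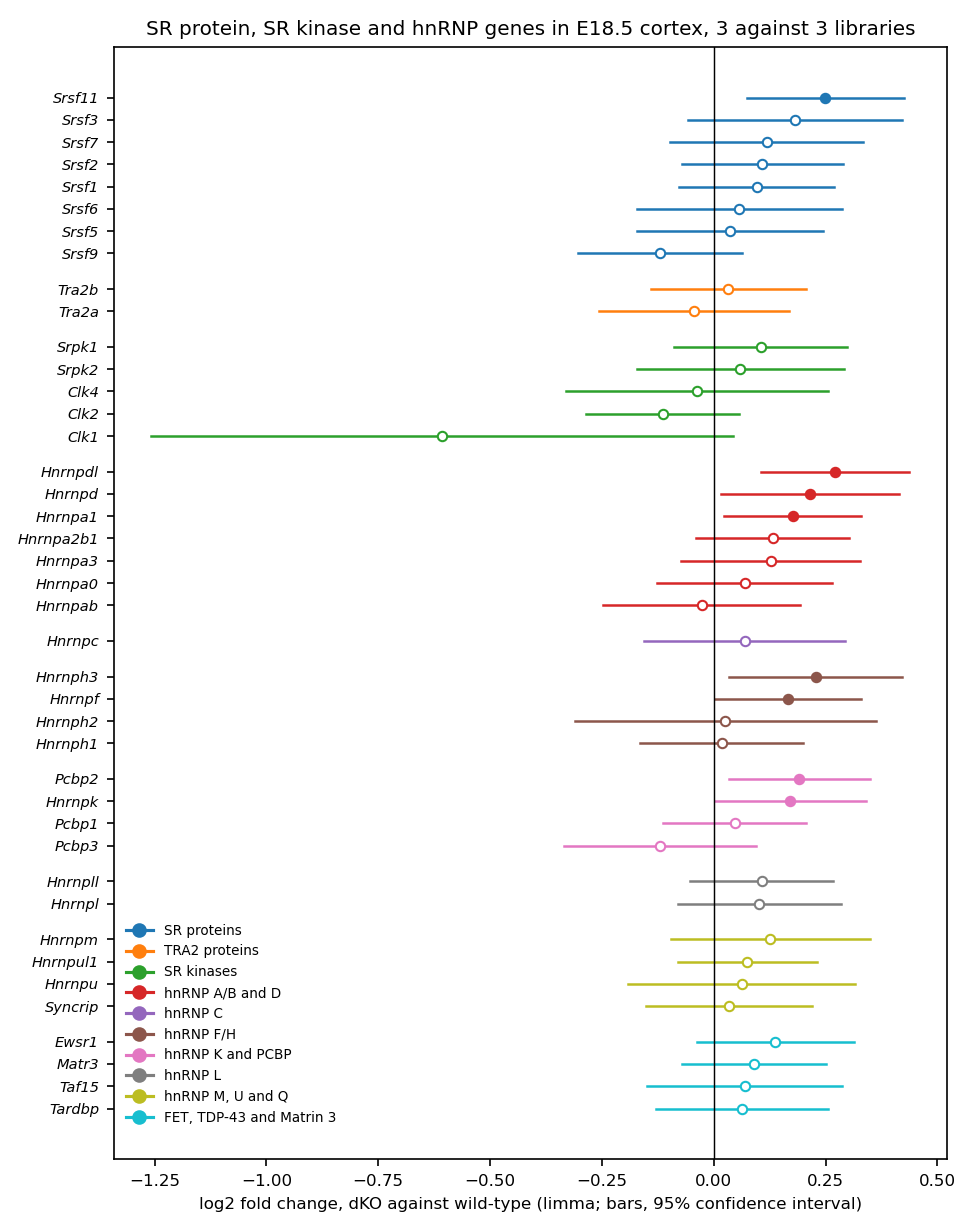
Log2 fold change of dKO against wild-type cortex from limma (horizontal axis) for each of the 41 genes, grouped by role, with bars for the 95% confidence interval (3 libraries each). Filled points mark the 8 genes with an unadjusted *P*-value under 0.05, all to the right of 0, and *Clk1* is the only gene beyond 0.3 in size, with an interval from -1.26 to 0.04.

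In the hnRNP A/B and D group, which holds the most abundant hnRNPs, 6 of 7 genes had higher dKO values. Of these, *Hnrnpa0* and *Hnrnpa2b1* had lower ones with quantile normalization. At an unadjusted *P*-value under 0.05, 3 of the 7 genes were higher, beside 4.92% of all features (limma). The mean of all 7 genes reached 5000 normalized counts. Of the features at this level, 76.4% had higher dKO values and 12.5% were higher at this threshold. *Hnrnpdl* (GSMG0030784, chromosome 5 from 100033577 to 100039222 in the mm10 build) encodes a relative of the AU-rich element binding protein AUF1. It had 9264, 9258 and 8764 normalized counts in wild-type and 11170, 11474 and 10301 in dKO libraries, a log2 fold change of 0.27 (SE 0.08, unadjusted p = 0.0044, adjusted p = 0.30 from limma). Each dKO library lay above each wild-type library. *Hnrnpd* (GSMG0030783, chromosome 5 from 99955935 to 99978938), at a distance of 0.055 Mb from it, encodes AUF1 itself. It had 21941, 19013 and 17980 counts in wild-type and 24431, 21698 and 22140 in dKO libraries, and wild-type replicate 1 lay above dKO replicate 2, so the genotypes overlapped. Its log2 fold change was 0.22 (SE 0.09, unadjusted p = 0.037, adjusted p = 0.40 from limma).

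*Hnrnpa1* (GSMG0013712, chromosome 15 from 103240397 to 103246698) encodes a repressor of exon inclusion that competes with SR proteins. Its libraries held 22584, 23499 and 21892 normalized counts in wild-type and 25806, 24923 and 26055 in dKO cortex, a log2 fold change of 0.18 (SE 0.07, unadjusted p = 0.028, adjusted p = 0.39 from limma). The genotypes did not overlap, but the feature also carries the symbol *Gm10052*, and 42.2% of the 100-base windows of its longest coding transcript occur in other annotated genes. *Hnrnpa2b1*, which carries RNA along neuronal processes as well as acting in splicing, had the highest level of the group per kilobase. Its values were 33326, 36065 and 31015 in wild-type and 37937, 36298 and 35591 in dKO libraries, and the genotypes overlapped (log2 fold change 0.13, SE 0.08). *Hnrnpa3* had the lowest level of the group per kilobase, with 5386, 5519 and 4888 counts in wild-type and 6388, 5341 and 5550 in dKO libraries. Its feature also carries the symbol *Gm6793*. The log2 fold changes of *Hnrnpa0* and *Hnrnpab* were 0.07 and -0.03.

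The F/H group binds G-rich runs near splice sites and polyadenylation sites, and all 4 genes had higher dKO values in the 6 libraries. *Hnrnph1* had lower ones with quantile normalization, without wild-type replicate 3, without dKO replicate 1 and without replicate 1 of both genotypes, and *Hnrnph2* without wild-type replicate 3 and without dKO replicate 1. *Hnrnph3* (GSMG0004174, chromosome 10 from 63014664 to 63023849) had 1309, 1495 and 1355 normalized counts in wild-type and 1643, 1564 and 1656 in dKO libraries, a log2 fold change of 0.23 (SE 0.09, unadjusted p = 0.025, adjusted p = 0.39 from limma). *Hnrnpf* (GSMG0032387, chromosome 6 from 117900340 to 117925621) had 11682, 12795 and 11954 in wild-type and 14173, 13245 and 13454 in dKO libraries, a log2 fold change of 0.17 (SE 0.07, unadjusted p = 0.046, adjusted p = 0.42 from limma). Neither gene overlapped between the genotypes. Of the 100-base windows of *Hnrnpf*, 56.3% occur in other annotated genes, the highest share of the set, so the counting of its reads is less certain than that of *Hnrnph3*, with 0.80%. *Hnrnph1* was the highest of the group per kilobase, with 23796, 25571 and 22949 counts in wild-type and 26739, 22955 and 23594 in dKO libraries (log2 fold change 0.02, SE 0.08). *Hnrnph2* on the X chromosome was the lowest gene of the whole set, with 261, 233 and 210 counts in wild-type and 260, 220 and 235 in dKO libraries (log2 fold change 0.03, SE 0.15).

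hnRNP K and the PCBP proteins bind C-rich RNA through KH domains, the type of domain by which Sam68 and SLM2 bind RNA. *Pcbp2* (GSMG0013696, chromosome 15 from 102470538 to 102500059) had 11071, 11481 and 11588 normalized counts in wild-type and 13508, 12467 and 13012 in dKO libraries, a log2 fold change of 0.19 (SE 0.07, unadjusted p = 0.022, adjusted p = 0.39 from limma). *Hnrnpk* (GSMG0010734, chromosome 13 from 58391132 to 58403345) had 17198, 16678 and 17142 in wild-type and 20801, 18063 and 18691 in dKO libraries, a log2 fold change of 0.17 (SE 0.08, unadjusted p = 0.048, adjusted p = 0.43 from limma). For both genes each dKO library lay above each wild-type library, with dKO replicate 1 the highest. *Map3k12*, whose feature overlaps that of *Pcbp2* on the chromosome, shares 47.3% of the windows of *Pcbp2*, and its own log2 fold change was -0.04. *Pcbp1*, the highest of the group per kilobase, had 14518, 14009 and 14772 counts in wild-type and 15750, 14348 and 14644 in dKO libraries. *Pcbp3*, the lowest, had 866, 930 and 887 in wild-type and 879, 825 and 767 in dKO libraries (log2 fold change -0.12, SE 0.10), and both of these genes overlapped between the genotypes. *Pcbp2* and *Hnrnpa1* share chromosome 15 with *Khdrbs3*, at 33.4 and 34.1 Mb from it.

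**Figure D3:**
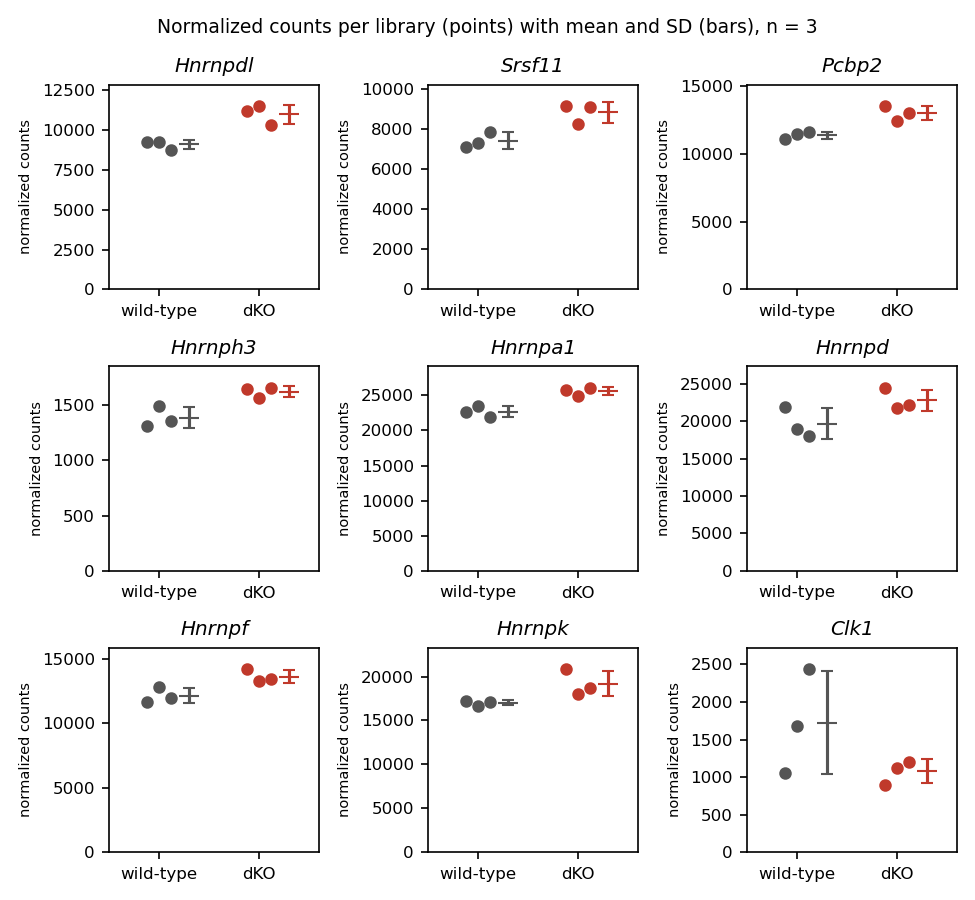
Normalized counts (vertical axis, from 0) of each library for the 8 genes with an unadjusted *P*-value under 0.05 and for *Clk1*, with points for the 3 libraries of a genotype and bars for the mean and SD. The dKO points lie above the wild-type points in 7 of the 9 panels, they overlap for *Hnrnpd*, and in *Clk1* the wild-type points spread from 1058 to 2431.

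The remaining hnRNPs had log2 fold changes from 0.03 to 0.13. *Hnrnpc*, whose protein binds uridine runs and covers cryptic exons, had 8056, 10643 and 9183 normalized counts in wild-type and 10229, 9231 and 9626 in dKO libraries, with the wild-type libraries holding both the lowest and the highest value. In the L group, *Hnrnpll* had 3450, 3337 and 3398 in wild-type and 3733, 3557 and 3679 in dKO libraries, without overlap (log2 fold change 0.11, SE 0.07). *Hnrnpl*, which binds CA repeats, had 7644, 6910 and 7075 in wild-type and 8393, 7338 and 7503 in dKO libraries and overlapped (log2 fold change 0.10, SE 0.08). *Hnrnpul1* had the closest wild-type libraries of the set, with 5506, 5453 and 5543 counts, and its dKO libraries held 5958, 5616 and 5818 without overlap (log2 fold change 0.08, SE 0.07). *Hnrnpm* had 11694, 12728 and 10785 in wild-type and 14615, 11551 and 12365 in dKO libraries. *Syncrip*, which encodes hnRNP Q, had 8623, 8302 and 8060 in wild-type and 9243, 7734 and 8657 in dKO libraries. In *Hnrnpm* and *Syncrip*, as in *Hnrnpu* (log2 fold change 0.06), dKO replicate 1 held the highest value and the genotypes overlapped. Over the 22 hnRNP and PCBP genes, 20 had higher dKO values, 7 of which had lower ones with quantile normalization. The median log2 fold change was 0.10. Of the 22, 7 were higher at an unadjusted *P*-value under 0.05 (limma) and 8 were higher without overlap. Of all features 4.92% and 7.89% were so, and of those whose mean reached 5000 normalized counts 12.5% and 14.5%.

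Among the 8 SR proteins, 7 had higher dKO values, *Srsf5* not so with quantile normalization, and the median log2 fold change was 0.10. *Srsf11* (GSMG0026234, chromosome 3 from 158010473 to 158036639), which encodes an SR-like splicing regulator, was the only one at an unadjusted *P*-value under 0.05. It had 7101, 7306 and 7879 normalized counts in wild-type and 9130, 8250 and 9114 in dKO libraries, a log2 fold change of 0.25 (SE 0.08, unadjusted p = 0.0096, adjusted p = 0.34 from limma). Each dKO library lay above each wild-type library, and no 100-base window of its transcript occurs in another annotated gene. An unnamed feature over the whole of *Srsf11* had between 146 and 252 counts and a log2 fold change of -0.23 with an unadjusted p of 0.27 (limma). *Srsf2* encodes SC35, a regulator of exon inclusion that also marks nuclear speckles. It had 11018, 10926 and 9457 in wild-type and 11548, 11080 and 11158 in dKO libraries, without overlap by a narrow margin (log2 fold change 0.11, SE 0.08). *Srsf2* shares 20.1% of its windows with *Mettl23*, whose feature overlaps it on the chromosome and whose log2 fold change was 0.33.

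*Srsf9* was the SR protein with lower dKO values, under every scaling tried. Its libraries held 2029, 2103 and 2015 normalized counts in wild-type and 1905, 1759 and 2002 in dKO cortex, again without overlap by a narrow margin (log2 fold change -0.12, SE 0.08, unadjusted p = 0.18 from limma). *Srsf6*, the lowest SR protein per kilobase, had 1975, 2333 and 1835 in wild-type and 2298, 2053 and 2018 in dKO libraries and overlapped. The other SR proteins had log2 fold changes of 0.18 (*Srsf3*), 0.12 (*Srsf7*), 0.10 (*Srsf1*) and 0.04 (*Srsf5*) with overlapping genotypes. The TRA2 proteins bind GAA-rich enhancers beside the SR proteins, and both genes overlapped between the genotypes. *Tra2a* had 4271, 5405 and 4442 in wild-type and 4418, 4533 and 4667 in dKO libraries (log2 fold change -0.04, SE 0.10). *Tra2b* had 4217, 4504 and 4171 in wild-type and 4229, 4278 and 4687 in dKO libraries (log2 fold change 0.03, SE 0.08).

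The kinases of SR proteins had a median log2 fold change of -0.04 over 5 genes, the lowest of the role groups, with 3 of them lower in dKO cortex. *Clk2* had 2557, 2655 and 2749 normalized counts in wild-type and 2556, 2373 and 2428 in dKO libraries, without overlap by a narrow margin (log2 fold change -0.11, SE 0.08). Its feature also carries the symbol of the neighbouring gene *Scamp3*. *Srpk2*, the lowest of the kinases per kilobase, had 1522, 1509 and 1343 in wild-type and 1716, 1364 and 1490 in dKO libraries (log2 fold change 0.06, SE 0.10). The log2 fold changes of *Srpk1* and *Clk4* were 0.10 and -0.04. *Clk1* (GSMG0001611, chromosome 1 from 58410190 to 58424088), a nuclear kinase with an intron that is retained in part of its transcripts, is described because of its spread, a choice made after its values were seen.

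*Clk1* varied more among wild-type libraries than any other gene of the set. It had 1058, 1683 and 2431 normalized counts in wild-type and 900, 1126 and 1206 in dKO libraries, so that the wild-type libraries spanned 2.30-fold and their lowest value lay below dKO replicates 2 and 3. Its log2 fold change was -0.61 (SE 0.28, unadjusted p = 0.063, adjusted p = 0.46 from limma). Without wild-type replicate 1 the log2 fold change was -0.92, with an unadjusted p of 0.00051, and without wild-type replicate 3 it was -0.32, with an unadjusted p of 0.14 (limma). The adjusted *P*-value of *Clk1* lay between 0.23 and 0.77 over the 19 alternatives, and its unadjusted *P*-value was under 0.05 in 5 of them. *Clk4* was likewise lowest in wild-type replicate 1 and highest in wild-type replicate 3, with 633, 789 and 901 counts, and its dKO libraries held 703, 784 and 755. Among 8 tested stress-responsive genes, which include heat-shock genes and *Atf4*, 0 were at an unadjusted *P*-value under 0.05, beside 11.5% of all features (limma). A list of 8 genes is too short for this count to be told from that share. Of the 8, 6 had higher and 2 lower dKO values, and 1, *Dnajb1*, was higher without overlap (log2 fold change 0.16). A role of stress in the values of *Clk1* was not tested.

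The FET proteins, TDP-43 and Matrin 3, which are known for their link to motor neuron disease, had log2 fold changes from 0.06 to 0.14. *Matr3*, the highest of this group per kilobase, had 25295, 25019 and 24468 normalized counts in wild-type and 27802, 24814 and 27025 in dKO libraries (log2 fold change 0.09, SE 0.07). *Tardbp*, the lowest, had 2902, 2493 and 2478 in wild-type and 2769, 2635 and 2799 in dKO libraries (log2 fold change 0.06, SE 0.09). The log2 fold changes of *Ewsr1* and *Taf15* were 0.14 and 0.07. The genotypes overlapped in all 4 genes.

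By the plain criterion that every dKO library lies above every wild-type library, 10 of the 41 genes (24.4%) were higher, beside 7.89% of all features. Every dKO library lay below every wild-type library in 2 genes (4.88%), *Clk2* and *Srsf9*, beside 8.48% of all features. For a single gene, the exact two-sided permutation test of 3 against 3 libraries cannot go below 0.1, the value of each of these 12 genes. The level of a feature bears on these shares. Among the features whose mean reached 5000 normalized counts, 12.5% were at an unadjusted *P*-value under 0.05 with higher dKO values and 14.5% did not overlap and were higher. Of the 25 genes of the set at this level, 7 (28.0%) and 8 (32.0%) did so, with a median log2 fold change of 0.12.

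**Figure D4:**
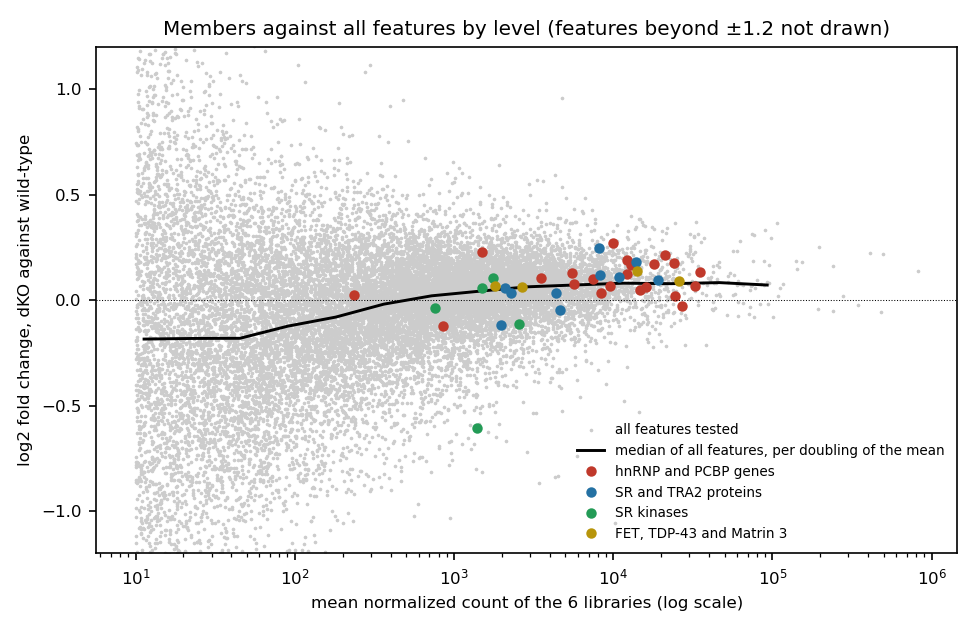
Log2 fold change of dKO against wild-type (vertical axis) against the mean normalized count of the 6 libraries (horizontal axis, log scale), with all tested features in grey and the 41 genes in colour by class. The black line, the median of all features for each doubling of the mean, runs from -0.18 at the lowest means to 0.08 at means from 8192 to 16384, and the 41 genes scatter on both sides of its right-hand part, with *Clk1* far under it.

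The libraries contributed unequally. dKO replicate 1 held the highest value of 23 of the 41 genes and wild-type replicate 3 the lowest value of 20. The median deviation of the 41 genes from their means was 0.12 in dKO replicate 1 and -0.10 in wild-type replicate 3, and between -0.04 and 0.04 in the other 4 libraries. Without replicate 1 of both genotypes, 5 genes were at an unadjusted *P*-value under 0.05, 4 of them with higher and 1 with lower dKO values, 29 genes had higher values and the median log2 fold change was 0.06. With the 4 remaining libraries, 15 genes did not overlap and were higher and 6 did not overlap and were lower, together 51.2% of the set beside 41.1% of all features. *Hnrnpdl* and *Srsf11* were at an unadjusted *P*-value under 0.05 in all 19 alternatives to the fit, with log2 fold changes from 0.19 to 0.32 and from 0.18 to 0.30. *Hnrnpk* and *Hnrnpf* were so in 10 and 11 of the 19.

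**Figure D5:**
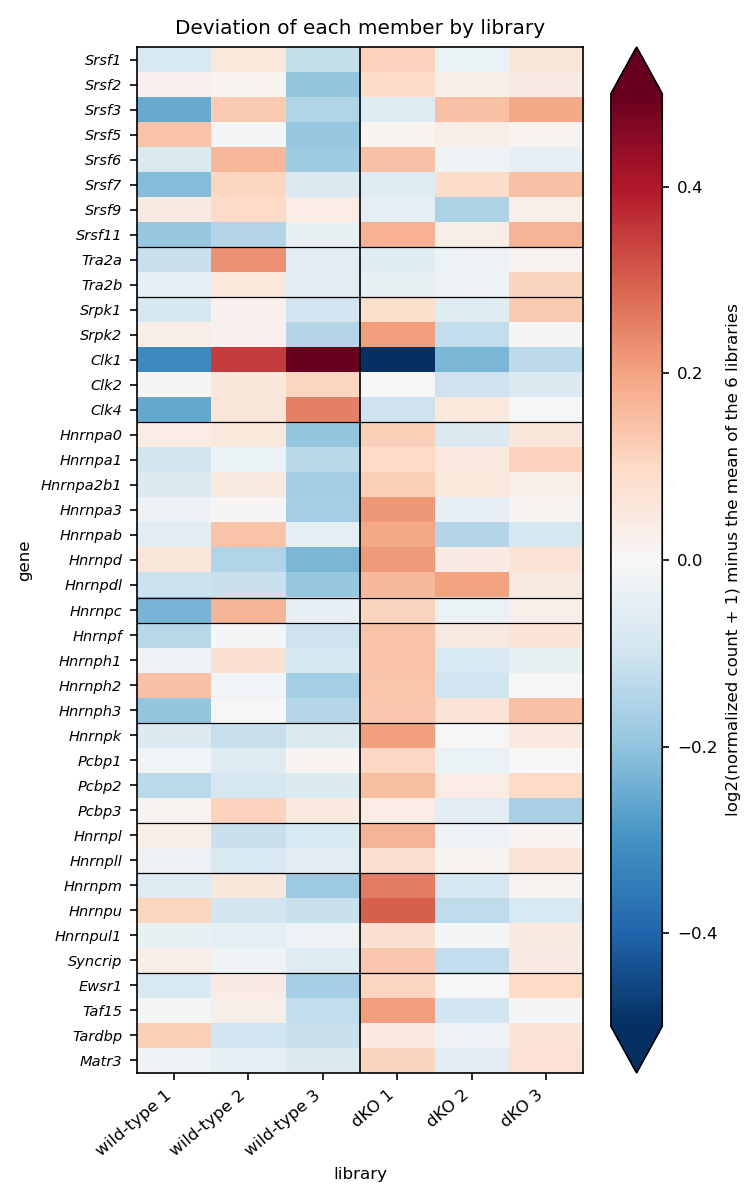
Deviation of log2(normalized count + 1) from the mean of the 6 libraries (colour scale, red above and blue below the mean) for each gene of the set (rows, grouped by role) in each library (columns). dKO replicate 1 is red for most genes and wild-type replicate 3 blue for most, and the *Clk1* row has the strongest colours, which run beyond the ends of the scale at 0.5.

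Other genes of the same pathways, from a list of 61 related SR-like, kinase, phosphatase, import and hnRNP genes, were read from the same fit. Of the 58 tested, 0 passed an adjusted *P*-value of 0.05 (limma). At an unadjusted *P*-value under 0.05, 6 had higher and 1 had lower dKO values, 7 in all, beside 11.5% of all features in both directions together, and the median log2 fold change was 0.07. The U1-associated SR-like gene *Luc7l3* had 3114, 3003 and 3078 normalized counts in wild-type and 3845, 3730 and 3625 in dKO libraries (log2 fold change 0.28, SE 0.07). *Nono*, a paraspeckle protein gene, *Rbmx*, which encodes hnRNP G, *Ptbp1*, the repressor of neuronal exons also known as hnRNP I, *Ilf2* and the import receptor gene *Tnpo2* had log2 fold changes from 0.20 to 0.23. *Pnisr*, an SR-like gene, had 1209, 1228 and 1205 in wild-type and 1054, 1010 and 946 in dKO libraries (log2 fold change -0.28, SE 0.09). In these 7 genes, which were chosen by their unadjusted *P*-value, the genotypes did not overlap. Their adjusted *P*-values lay between 0.27 and 0.40 (limma). Of the 58 tested, 10 were higher and 3 were lower without overlap, beside 7.89% and 8.48% of all features.

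Marker genes of several cell types had unequal values beside these results, with none at an adjusted *P*-value under 0.05. Of all features, 4.92% were at an unadjusted *P*-value under 0.05 with higher and 6.58% with lower dKO values (limma). Of the features whose mean reached 5000 normalized counts, 76.4% had higher dKO values and 12.5% were higher at this threshold. The counts below are to be read beside these shares. The summed counts of 8 genes listed for cortical projection neurons lay at 240898 to 265979 for wild-type and 269291 to 308215 for dKO libraries. Of the 8, 7 were higher in dKO cortex, 4 of them at an unadjusted *P*-value under 0.05. *Tubb3*, a gene of neurons in general, held the largest part of these sums and is among these 4. It had 148988, 137245 and 143717 counts in wild-type and 159016, 161506 and 166759 in dKO libraries. Those of 7 proliferation markers ran from 9816 to 11039 and from 12233 to 13146, with 7 of 7 higher and 4 at this threshold. Those of 3 intermediate progenitor markers, *Eomes*, *Neurog2* and *Btg2*, ran from 2288 to 3398 and from 3711 to 4709, with 3 of 3 higher and at this threshold. At E18.5 the paper reports fewer cells stained for TBR2, the protein of *Eomes*, in dKO cortex. By Ki67 staining it reports reduced progenitor proliferation at an earlier stage. Its measure is stained cells, whereas the values here are transcript levels of bulk cortex. The 4 oligodendrocyte lineage markers summed to 6600 to 11467 in wild-type and 3592 to 6205 in dKO libraries, with 4 of 4 lower and 3 at this threshold. Of 8 radial glia markers 4 were higher, 2 of them at the threshold. All 4 endothelial and all 5 meningeal markers were lower, with 1 of each list at the threshold, and the median log2 fold change of the meningeal markers was -0.76. Of 5 immediate early genes 2 were lower, 1 of them at the threshold. For 6 interneuron, 6 erythroid and 5 microglia markers the count at the threshold was 0. The 6 choroid plexus markers summed to 112 counts at most in any library, and the markers that define cortical projection neurons were high in all 6 libraries. The part of these differences in the values of the 41 genes was not tested.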

How the data were processed

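PolyA+ RNA of 3 wild-type and 3 *Sam68:Slm2* dKO cortices at E18.5 was sequenced in a 150 bp paired-end format from TruSeq Stranded mRNA libraries. GenoSplice analysed the reads for the authors on the genes of the FAST database. The submitters' processing notes name FastQC, Picard, SAMtools, STAR 2.7.5a, DESeq2 and the mm10 build. The strand setting of the counting is not given in the sources used here, so reads of overlapping genes on opposite strands may not be told apart. The authors deposited a signal per gene, a read count scaled by the size factor of its library. Dividing by the value of 1 read gave whole reads, within 0.01 reads, for 100.0% of the positive values.

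The genotype label of each library set its group. Genotypes were compared with limma 3.58.1 (lmFit, eBayes with trend and robust, R 4.3.3) on log2(value + 1) for features whose mean reached 10, with Benjamini-Hochberg adjustment at 0.05. A fold change on this scale understates that of low features. Single genes were compared by an exact two-sided permutation test. The alternatives were pseudocounts of 0.1 and 10, a minimum mean of 50 or none, TMM and quantile scaling, limma without trend and robust, DESeq2 1.42.0 and the quasi-likelihood test of edgeR 4.0.16 on recovered reads, an adjusted *P*-value under 0.1, the replicate number as a block, a correction for exon length, and libraries left out. The fits were checked on simulated counts. Symbols were matched to GENCODE release M21 for exon lengths and for shared windows of 100 bases, which were searched on both strands. Tables were handled in Python 3.11.15 with pandas 2.3.3, numpy 2.4.6 and scipy 1.17.1.

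The genes and lists were chosen with earlier results of these data known. Values per library are given for genes with an unadjusted *P*-value under 0.05, genes without overlap between genotypes and the highest and lowest gene per kilobase of each role group, and other pathway genes are named where their unadjusted *P*-value was under 0.05. *Hnrnplp*, *Hspa1a*, *Hspa1b* and *Junb* have no feature of their own. *Hnrnpa1*, *Hnrnpa3* and *Clk2* share their feature with other genes. Features of the proteins' sequences and splicing events were not analysed here.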

Additional observations from a re-analysis of the deposited data

How the results depend on the processing

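The count of 0 genes of the set at an adjusted *P*-value under 0.05 was the same in every alternative fit. At a threshold of 0.1 it was also 0 in the limma fit of all libraries, while *Hnrnpdl* had an adjusted *P*-value of 0.088 with DESeq2. The count of 8 at an unadjusted *P*-value under 0.05 was 3 with quantile normalization and 2 with limma without the trend and robust options, 9 with edgeR, 8 with DESeq2 on the recovered reads and between 2 and 8 with libraries left out. It was lowest without dKO replicate 3 (2), wild-type replicate 3 (3) and wild-type replicate 1 (4), and 5 without dKO replicate 1 and without replicate 1 of both genotypes. Of the genes counted, 1, *Clk1*, had lower dKO values with edgeR, without wild-type replicate 1 and without replicate 1 of both genotypes. The median log2 fold change of 0.08 ran from 0.05 to 0.13 with libraries left out and was 0.02 with quantile normalization, all within the spread of this median between libraries (SD 0.06). The 12 genes without overlap became 7 with quantile normalization. That count became 21 without replicate 1 of both genotypes, an alternative chosen after seeing the data, where fewer libraries are compared. With only the 38 genes whose feature holds no other gene, also chosen after seeing the data, 7 were at an unadjusted *P*-value under 0.05 and the median was 0.07. Over all features, the 19 called at an adjusted *P*-value under 0.05 became 7 without trend and robust, 202 with DESeq2, 16 with edgeR and 5 to 46 with libraries left out, and the 2181 at an unadjusted *P*-value under 0.05 became 1230 to 2712. Of these, the 46 were without dKO replicate 1 and the 32 without wild-type replicate 2, and the lowest counts were 5 without replicate 1 of both genotypes, 7 without dKO replicate 3, 8 without wild-type replicate 1 and 10 without wild-type replicate 3. The cause of these shifts was not tested.

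Deviations from the genotype means correlated at 0.10, -0.23 and -0.08 between libraries of the same number, for numbers 1, 2 and 3. They correlated at 0.21 for wild-type replicate 3 with dKO replicate 2 and at 0.19 for wild-type replicate 2 with dKO replicate 3. The remaining pairs lay from -0.14 to 0.04. Replicate 1 of both genotypes also shared the relation to exon length given above. Whether any libraries form pairs was not tested. With the replicate number as a block, 10 genes of the set were at an unadjusted *P*-value under 0.05, the median stayed at 0.08 and 9 features were called at an adjusted *P*-value under 0.05. With the block and the correction for exon length these values were 10, 0.08 and 4. In both fits with the block, 9 of the 10 genes had higher dKO values and 1, *Clk1*, had lower ones.

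Of the log2 fold changes of single genes under the alternatives, 912 kept their direction and side of the threshold, 37 changed sign and 1 lost its call. *Khdrbs3* was not called without trend and robust, with a log2 fold change of -1.05 and an adjusted *P*-value of 0.089 (limma). With quantile normalization the log2 fold changes were -0.0023 for *Srsf5*, -0.032 for *Tra2b*, -0.054 for *Hnrnpa0*, -0.0021 for *Hnrnpa2b1*, -0.0070 for *Hnrnpc*, -0.058 for *Hnrnph1*, -0.043 for *Pcbp1*, -0.013 for *Hnrnpu*, -0.041 for *Syncrip* and -0.0066 for *Matr3*. With the correction for exon length, 8 genes were at an unadjusted *P*-value under 0.05, 15 features were called at an adjusted one and the median was 0.08. With it, with and without the block, the log2 fold change of *Syncrip* was -0.0015. With libraries left out, ranges that crossed 0 were -0.050 to 0.12 for *Srsf5*, -0.024 to 0.15 for *Srsf6*, -0.11 to 0.059 for *Tra2a*, -0.014 to 0.067 for *Tra2b*, -0.030 to 0.14 for *Srpk2* and -0.18 to 0.079 for *Clk4*. Such ranges were also found for *Hnrnpa0* (-0.0097 to 0.12), *Hnrnpab* (-0.16 to 0.039), *Hnrnpc* (-0.069 to 0.17), *Hnrnph1* (-0.058 to 0.061), *Hnrnph2* (-0.052 to 0.10), *Hnrnpu* (-0.071 to 0.14), *Syncrip* (-0.025 to 0.10) and *Taf15* (-0.019 to 0.13). At 3 libraries a genotype, the widest 95% interval apart from that of *Clk1* reached from -0.31 to 0.36 for *Hnrnph2*, so differences within it were not detectable for the least abundant gene.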
